A study of Canis lupus familiaris with 18 samples.

Results

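High grade oligodendroglioma (HGO) tissue from 4 boxers was compared with HGO tissue from 3 Boston terriers. These 7 dogs were all of the boxers and Boston terriers among the 18 RNASeq libraries of the series, the other 11 being French bulldogs. The breeds were taken from the sample labels, and each of the 7 libraries is 1 dog. The tissue was taken at surgery before trial treatment, fixed in formalin and embedded in paraffin, and the labels name no agent or allele for any of the 7 dogs. The dogs are called boxers 1, 3, 4 and 5 and Boston terriers 2, 6 and 7, after the running number of the comparison libraries. Their ages, sexes and tumor locations could not be tied to single libraries and were not used. By breed, the study's patient table places most boxer tumors in the right temporal lobe and each Boston terrier tumor in a different lobe. Breed and lobe therefore cannot be told apart. The reads of both breeds were mapped to the genome of a boxer, Tasha.

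Boxers and Boston terriers are brachycephalic breeds of the same genetic clade, and both have a high risk of glioma. Oligodendroglioma cells resemble oligodendrocyte progenitors, the dividing cells that make the myelin-forming oligodendrocytes of the brain. Progenitors carry platelet-derived growth factor receptor alpha (PDGFRA) and proteoglycans such as CSPG4, and the lineage is set by the transcription factors OLIG2 and SOX10. A resected tumor also holds vessels, microglia and macrophages, astrocytes and neurons in varying amounts. In bulk tissue, fewer cells of a type and less RNA per cell cannot be told apart.

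The values are counts of reads per gene, scaled to the depth of each library (CPM) with the trimmed mean of M-values (TMM) method. A library held 8985932 to 12104098 counts, and 3 counts, taken as the smallest level the depth could show, corresponded to 0.261 to 0.339 CPM. That limit covers counting error only. One gene without a symbol held 19.1% to 27.4% of the counts and was the highest in every dog. The library names fall into 2 series by their running index, the first with boxers 1, 3 and 4 and Boston terrier 2 and the second with boxer 5 and Boston terriers 6 and 7. The labelled tumor type was checked against its markers: OLIG2 had 153 to 302 CPM and SOX10 had 218 to 491 CPM in the 7 dogs.

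Across all genes, few differences between the breeds stood out from the spread between dogs. A gene was tested if it had 10 or more counts in at least 3 of the 7 dogs, which left 16754 of 29993 genes. No gene had an adjusted p under 0.05 by edgeR's quasi-likelihood F test (0 of 16754, 0.0%), and the smallest adjusted p was 0.7995. At an unadjusted p under 0.05 there were 1035 genes (6.18%), of which 561 (3.35%) were higher in boxers and 474 (2.83%) lower. With upper quartile scaling the split was 656 higher and 358 lower. The DESeq2 Wald test, run as an alternative, had 40 genes with an adjusted p under 0.05, and limma-voom had 0.

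After TMM scaling, which itself centers the differences, the direction was balanced over genes but the size was not. Of the genes tested, 8270 (49.4%) had a log2 fold change above 0, that is, a higher level in boxers. With upper quartile scaling the share was 53.4%. The median log2 fold change was -0.0054, and the 25th and 75th percentiles were -0.25 and 0.32. Differences of 2-fold or more were higher in boxers for 858 genes and lower for 372. Many of these genes were low: 44.8% had a mean under 1 log2 CPM. Among the 5438 genes with a mean of 5 log2 CPM or more, 28 were 2-fold or more higher and 31 were 2-fold or more lower. Every boxer was above every Boston terrier for 572 genes (3.41%), and every boxer was below every Boston terrier for 668 genes (3.99%).

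**Figure D1:**
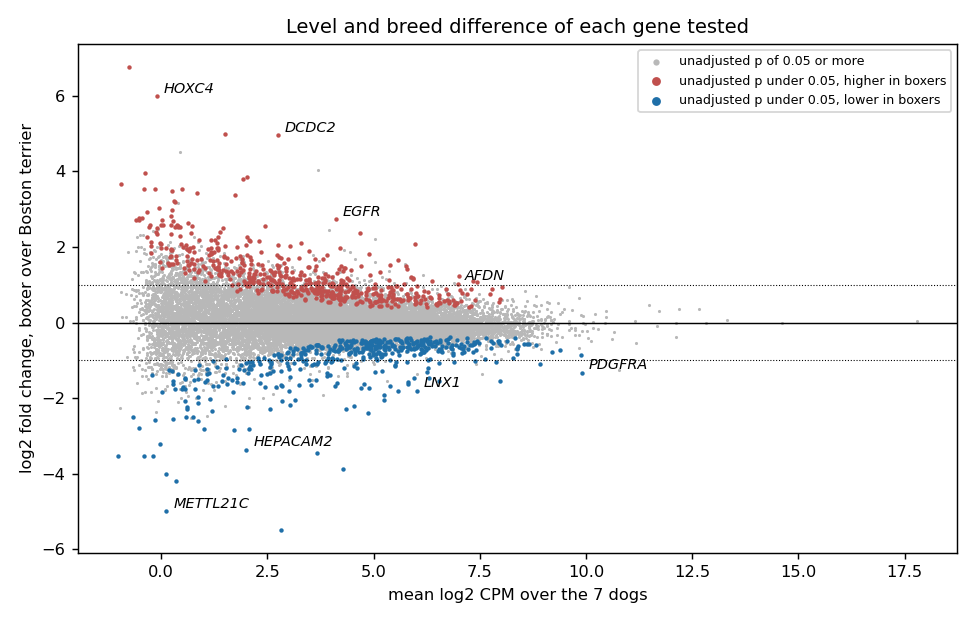
Each point is 1 of the 16754 genes tested, with its mean log2 CPM over the 7 dogs on the horizontal axis and its log2 fold change, boxer over Boston terrier, on the vertical axis. Red and blue points had an unadjusted p under 0.05 by edgeR (561 higher and 474 lower in boxers), dotted lines mark 2-fold, and no gene had an adjusted p under 0.05.

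The differences between dogs of the same breed had about the same size as those across breeds. The median absolute difference in log2 CPM over genes was 0.37 to 0.53 for the 6 pairs of boxers, 0.44 for each of the 3 pairs of Boston terriers and 0.38 to 0.54 for the 12 pairs across breeds. Of the total variance in log2 CPM, 20.4% lay between the breeds, which did not pass the exact permutation test over the 35 assignments of the dogs (one-sided, p = 0.171, smallest possible p = 0.0286). The share was 17.7% without Boston terrier 7 and 31.2% without Boston terrier 6. By the same measure 17.9% lay between the library series, and 28.5% lay between Boston terrier 7 and the other 6 dogs, the largest share of any single dog. The breed difference within the first library series and that within the second had the same direction for 7947 genes (47.4%).

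PDGFRA, the receptor that drives division of oligodendrocyte progenitors, was lower in every boxer than in every Boston terrier. It had 563, 405, 795 and 873 CPM in boxers 1, 3, 4 and 5 and 1706, 1450 and 1815 CPM in Boston terriers 2, 6 and 7. The means were 659 ± 215 (SD, n = 4) and 1657 ± 187 (SD, n = 3). The log2 fold change was -1.33 (standard error, SE, 0.28, edgeR unadjusted p = 0.00105, adjusted p = 0.7995), and DESeq2 gave an adjusted p of 0.0144. The differences in log2 CPM within the library series were -1.59 in the first and -0.89 in the second. Their shared direction follows from the lack of overlap and adds no support.

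LNX1, an E3 ubiquitin ligase of the Numb protein, lies close to PDGFRA in the dog genome and showed the same separation. It had 33.2, 35.7, 24.7 and 63.2 CPM in boxers 1, 3, 4 and 5 and 177, 107 and 128 CPM in Boston terriers 2, 6 and 7. Boxer 5 was the highest boxer and was still below the lowest Boston terrier. The log2 fold change was -1.81 (SE 0.33, edgeR unadjusted p = 0.000335). Other genes of this stretch were named after their values were seen. FIP1L1, a factor of messenger RNA polyadenylation, had a log2 fold change of -0.79, and its breeds overlapped. CHIC2, between LNX1 and PDGFRA, had -0.35. On the other side, the receptors KIT and KDR had 0.05 and 0.30. Farther off, RASL11B, a small GTPase of the Ras family, was higher in boxers, at 2.26 to 5.37 CPM against 0.807 to 2.00 CPM without overlap. Of the 5 nearest tested genes on either side of PDGFRA, LNX1 alone was lower in every boxer than in every Boston terrier.

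One ligand and the other platelet-derived growth factor receptor had values in the opposite direction to PDGFRA. PDGFA, a ligand of PDGFRA, had 21.4, 18.5, 18.4 and 27.4 CPM in boxers and 14.7, 9.73 and 7.80 CPM in Boston terriers, with no overlap and a log2 fold change of 0.99 (SE 0.29, edgeR unadjusted p = 0.0072). PDGFRB, the receptor of pericytes, had 103, 142, 124 and 154 CPM in boxers and 71.1, 102 and 91.4 CPM in Boston terriers. Its breeds were separated by a narrow gap, between boxer 1 and Boston terrier 6, and its log2 fold change was 0.56 (SE 0.22, edgeR unadjusted p = 0.0284).

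EGFR, the epidermal growth factor receptor, had the highest values in 2 of the boxers. It had 142, 38.9, 12.7 and 14.01 CPM in boxers 1, 3, 4 and 5 and 7.61, 5.04 and 10.7 CPM in Boston terriers 2, 6 and 7. All 4 boxers were above the Boston terriers, but boxer 1 alone held 68.4% of the summed CPM of the boxers, and boxers 4 and 5 lay just above Boston terrier 7. The log2 fold change was 2.74 (SE 0.88, edgeR unadjusted p = 0.0135), and it was 1.49 without boxer 1. Over the list of growth factor receptors and ligands, 20 genes were tested, 12 were higher and 8 lower in boxers, 3 had an unadjusted p under 0.05, all higher (3.35% of all genes), and the median log2 fold change was 0.14 against -0.0054 for all genes, and 0.027 without boxer 1. This list does not hold PDGFRA, which was counted with the lineage genes and was lower. FGF4, a fibroblast growth factor, had 0 counts in all 7 dogs and could not be compared.

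**Figure D2:**
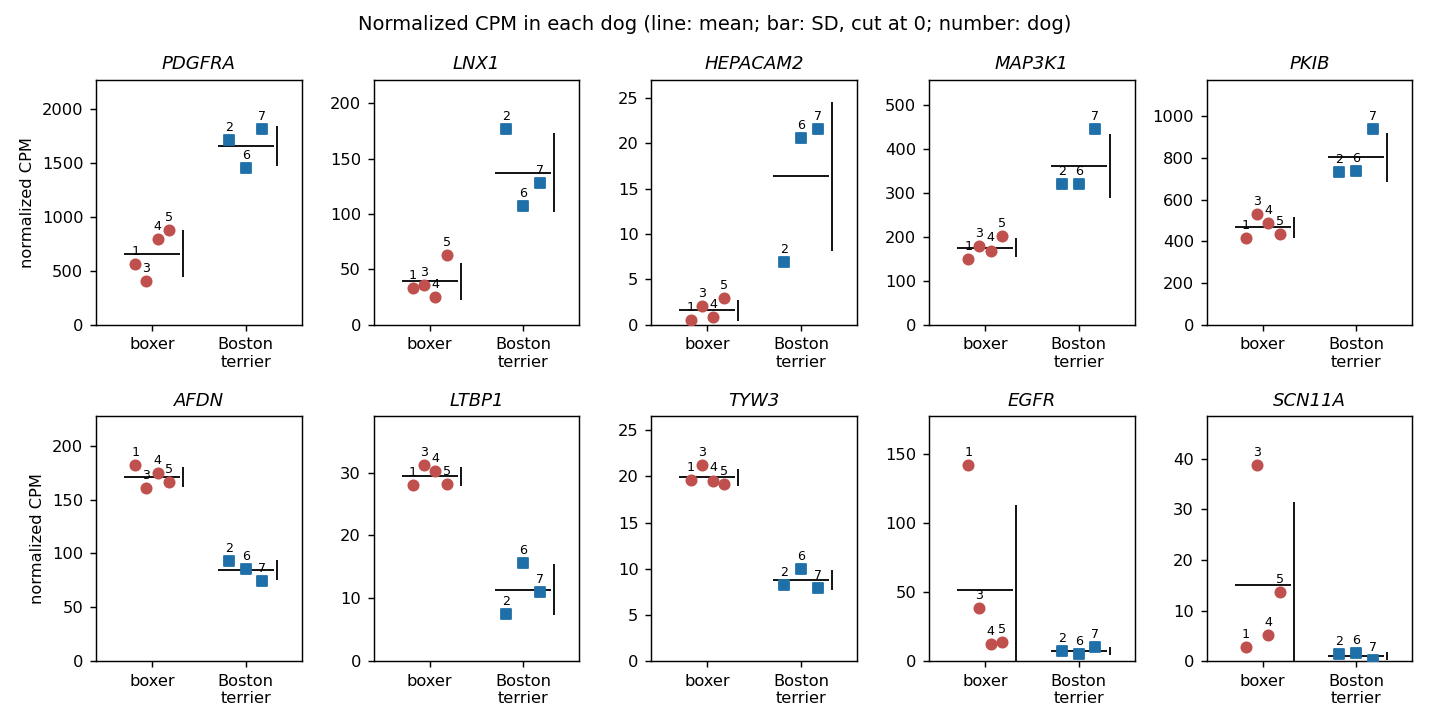
Normalized CPM (vertical axis, from 0, a scale for each gene) of 10 genes in the 4 boxers (red circles) and the 3 Boston terriers (blue squares), with the number of the dog, the mean as a line and the SD as a bar cut at 0. The breeds do not overlap in any of the 10, but EGFR and SCN11A rest on high values in single boxers, whereas AFDN, LTBP1 and TYW3 are tight within the boxers.

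Of the lineage genes of the tumor cells, most had lower levels in boxers, and CSPG4 did not. In the list of oligodendrocyte progenitor and lineage genes, 14 were tested, 11 were lower and 3 higher in boxers, and the median log2 fold change was -0.32. At an unadjusted p under 0.05, 3 of 14 were lower (2.83% of all genes), PDGFRA and SOX8 among them, and 1 was higher (CSPG4, 3.35% of all genes). These 4 became 0 with all 18 libraries in the fit or with 17, and 2 with the library series as a term, without boxer 1 or without boxer 3. SOX8, a transcription factor close to SOX10, had 215, 226, 353 and 344 CPM in boxers and 420, 497 and 397 CPM in Boston terriers, with no overlap and a log2 fold change of -0.62 (SE 0.24). CSPG4, a proteoglycan of progenitors and of pericytes, had 60.4, 99.9, 132 and 61.5 CPM in boxers and 23.8, 33.4 and 58.1 CPM in Boston terriers. Its lowest boxer, boxer 1, lay just above Boston terrier 7, and the log2 fold change was 1.20 (SE 0.38, edgeR unadjusted p = 0.0121).

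The 2 factors that define the lineage did not separate the breeds. OLIG2 had 153, 197, 183 and 213 CPM in boxers and 258, 184 and 302 CPM in Boston terriers, with a log2 fold change of -0.41 (SE 0.22). SOX10 had -0.28 (SE 0.25). The level of the whole list, the mean log2 CPM of its genes in a dog, was 8.11 to 8.59 in boxers and 8.36 to 8.64 in Boston terriers. The breeds differed by -0.48 in the first library series and by 0.16 in the second, so the direction of the list was not shared by both.

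Myelin genes had somewhat higher values in boxers, with 9 of 12 tested higher and a median log2 fold change of 0.34. The median was 0.10 without Boston terrier 7, 0.17 without boxer 4 and 0.69 without Boston terrier 2. In the first library series 5 of 12 were higher, with a median difference of -0.084. Only MAL, a myelin proteolipid, had an unadjusted p under 0.05 and no overlap, against 3.35% and 3.41% of all genes in that direction. It had 3.96 to 7.58 CPM in boxers and 1.08 to 2.78 CPM in Boston terriers. MBP, the myelin basic protein, had 407, 349, 747 and 832 CPM in boxers and 364, 387 and 321 CPM in Boston terriers, so that boxers 4 and 5 stood far above all other dogs, boxer 1 was just above the Boston terriers and boxer 3 was below 2 of them.

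Genes of dividing cells mostly had lower values in boxers, but the size, and for mitosis genes also the direction, moved with single dogs. The S phase list, whose genes copy DNA, had 17 genes tested, all 17 lower in boxers (16 with DESeq2 size factors or upper quartile scaling), 4 with an unadjusted p under 0.05 (UHRF1, MCM6, MCM5 and MCM2, against 2.83% of all genes lower) and a median log2 fold change of -0.74. The level of the list was 3.45, 2.85, 3.48 and 3.85 log2 CPM in boxers 1, 3, 4 and 5 and 3.96, 3.30 and 4.96 log2 CPM in Boston terriers 2, 6 and 7. Boston terrier 7 had the highest level of all dogs, and Boston terrier 6 was below 3 of the boxers. Without Boston terrier 7 the median was -0.21, with 12 of 17 lower and 0 with an unadjusted p under 0.05. Without Boston terrier 6 the median was -1.17, with 11 of 17 at an unadjusted p under 0.05. The count was also 0 without boxer 1 (median -0.65), without boxer 3 (-0.57) and with the library series as a term (-0.54), and 1 without boxer 4 (-0.80) and with all 18 or 17 libraries in the fit.

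UHRF1, which keeps DNA methylation through replication, showed the pattern of the list. It had 16.9, 11.4, 19.8 and 37.5 CPM in boxers and 41.9, 20.3 and 153 CPM in Boston terriers, with a log2 fold change of -1.74 (SE 0.65), which was -0.54 without Boston terrier 7. The mitosis list had 14 of 17 genes lower in boxers, a median of -0.46 and none at an unadjusted p under 0.05. Without Boston terrier 7 the direction turned, with 10 of 17 higher and a median of 0.051, and without Boston terrier 6 the median was -0.83 and without boxer 5 -0.85. MKI67, the gene of the Ki-67 proliferation antigen, named after its values were seen, had 46.0 to 131 CPM in boxers and 44.8 to 228 CPM in Boston terriers, a full overlap. In the second library series 15 of 17 mitosis genes were higher in the boxer than in the mean of the Boston terriers, against 1 of 17 in the first.

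Histone genes that are used during replication were lower in boxers for all 10 tested of 28 in the files, with a median log2 fold change of -0.82 and 2 (H1-4 and H4C4) at an unadjusted p under 0.05, against 2.83% of all genes lower. Without Boston terrier 7 the median was -0.37, with 1 of 9 higher and 0 at an unadjusted p under 0.05. In the second library series 4 of 10 were higher in the boxer, with a median difference of -0.13.

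The cytosolic ribosomal proteins, the protein parts of the ribosome, were lower in boxers as a whole list. All 49 tested had the same direction, under each scaling tried, 25 of 49 had an unadjusted p under 0.05 against 2.83% of all genes in that direction, and 22 of 49 had every boxer below every Boston terrier against 3.99% of all genes. The median log2 fold change was -0.58, and the single genes ranged from -1.004 (RPL37) to -0.10 (RPS7). The genes are not independent of each other, so these counts are a description. RPL18 had 37.4, 31.04, 33.2 and 35.03 CPM in boxers and 65.1, 51.9 and 61.0 CPM in Boston terriers (log2 fold change -0.80, SE 0.18, edgeR unadjusted p = 0.00155). RPL14 had 44.1 to 76.8 CPM in boxers and 96.0 to 136 CPM in Boston terriers, and RPL35A had 50.0 to 56.6 CPM against 75.3 to 92.6 CPM.

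The level of the ribosomal protein list was 6.48, 6.14, 5.63 and 6.14 log2 CPM in boxers 1, 3, 4 and 5 and 6.92, 6.50 and 6.65 log2 CPM in Boston terriers 2, 6 and 7. Boxer 4 was the lowest dog, and boxer 1 was close to Boston terrier 6. The breeds differed by -0.83 in the first library series and by -0.43 in the second. The count at an unadjusted p under 0.05 moved with single dogs, from 9 without Boston terrier 2 to 37 without boxer 1, while 47 to 49 of the 49 were lower. It was 13 with all 18 libraries in the fit, 16 without boxer 4 and 19 without Boston terrier 7. These genes have many processed copies in mammalian genomes, and how reads that map to several places were counted is not given in the sources used here. Together they took 0.442% ± 0.128 (SD, n = 4) of the counts in boxers and 0.630% ± 0.115 (SD, n = 3) in Boston terriers. The breed means of the share of small non-coding RNAs had the same order, at 3.18% ± 0.468 (SD, n = 4) and 3.80% ± 0.219 (SD, n = 3). Among the boxers the order was opposite. Boxer 1 had the highest ribosomal protein share (0.6075%) and the lowest small RNA share (2.706%), and boxer 4 the lowest (0.2973%) and the highest (3.713%). With small non-coding RNAs left out, 49 of 49 ribosomal protein genes were lower, with 26 at an unadjusted p under 0.05 and a median of -0.58.

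**Figure D3:**
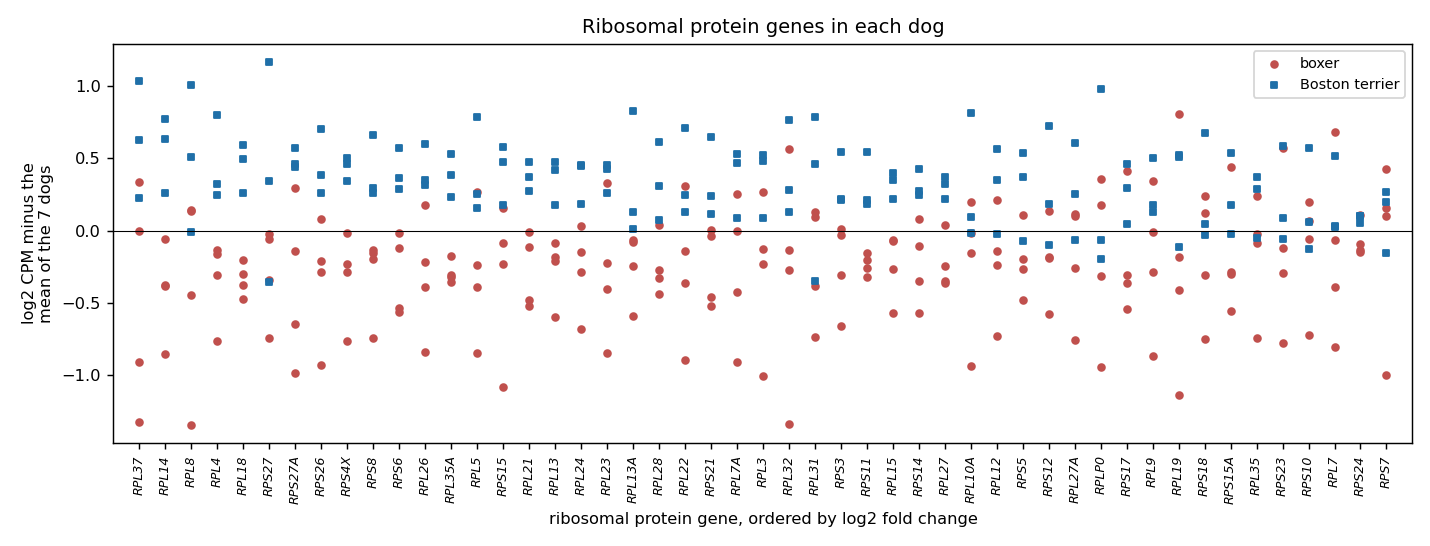
Each column is 1 of 49 ribosomal protein genes, ordered by log2 fold change, and each point is the log2 CPM of 1 dog minus the mean of the 7 dogs (vertical axis), with boxers as red circles and Boston terriers as blue squares. The Boston terriers lie above the boxers in most columns, without overlap in 22, and the lowest points mostly belong to boxers.

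Markers of matrix, vessel and macrophage cells mostly had higher values in boxers. Fibroblast and matrix genes were higher for 12 of 13 tested, with a median log2 fold change of 0.60 and 2 at an unadjusted p under 0.05, against 3.35% of all genes higher. These 2 became 0 with all 18 or 17 libraries in the fit. COL5A2, a chain of type V collagen, had 64.0, 103, 74.0 and 83.4 CPM in boxers and 34.7, 49.3 and 58.1 CPM in Boston terriers, with no overlap and a log2 fold change of 0.77 (SE 0.25, edgeR unadjusted p = 0.0119). COL5A1, its partner chain, had 30.3 to 54.9 CPM and 25.02 to 32.6 CPM. The type I and III collagen genes COL1A1, COL1A2 and COL3A1 had log2 fold changes of 0.59, 0.33 and 0.30, and in each of them Boston terrier 7 was above all boxers. Without Boston terrier 7 the median of the list was 1.17, with 8 of 13 at an unadjusted p under 0.05.

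Vessel genes showed the same direction at a smaller size. All 11 endothelium genes tested were higher in boxers, with a median log2 fold change of 0.30, a range of 0.10 to 0.80 and none at an unadjusted p under 0.05. Without boxer 3 or without Boston terrier 6, 9 of 11 were higher, and the median was 0.18 without Boston terrier 6 and 0.54 without Boston terrier 7. TIE1 and FLT1, receptors of endothelial cells, had 0.80 and 0.42, and PECAM1, VWF and CDH5 had 0.26, 0.21 and 0.10. Pericyte and smooth muscle genes were higher for 8 of 9 tested, with a median of 0.56 that was 0.36 without Boston terrier 2. Their level was 2.66 log2 CPM in Boston terrier 2 against 3.82 to 4.66 in the other 6 dogs, and the breed difference was 1.603 in the first library series, which holds that dog, and -0.33 in the second.

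Macrophage and microglia genes were higher in boxers for 11 of 15 tested, with a median log2 fold change of 0.23. The median was 0.074 without Boston terrier 6 and 0.61 without Boston terrier 7, and it was 0.45 without boxer 1 and 0.46 without Boston terrier 2. MRC1, the mannose receptor of macrophages, had 20.1, 12.1, 16.8 and 20.8 CPM in boxers and 11.2, 8.95 and 9.05 CPM in Boston terriers, with no overlap and a log2 fold change of 0.84 (SE 0.27, edgeR unadjusted p = 0.0125). C1QB, a complement chain made by microglia, had a log2 fold change of 0.75, with overlap. The general markers AIF1, CD68 and CSF1R had 0.22, 0.19 and 0.56 with overlap. The level of the list was 2.94 to 3.85 log2 CPM in boxers and 2.89 to 3.60 log2 CPM in Boston terriers.

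Defining lymphocyte markers were near or below the level of 3 counts, but other blood cell genes were not. The median log2 fold change of the genes tested was -0.25 for T cells (2 of 3 lower in boxers), -0.55 for B cells (2 of 2), -1.04 for neutrophils (3 of 4) and -4.01 for the single erythroid gene, too few genes for a direction of the list. Without Boston terrier 2 the T cell median was 0.76 and the B cell median -0.087, and the neutrophil median was 0.34 without Boston terrier 6. The T cell receptor chains CD3E, CD3D and CD3G had at most 5 counts in any dog, and 3 of 12 T cell genes in the files were tested, CD2, CD5 and IL7R. The B cell gene MS4A1 had at most 7 counts, whereas CD79A had 62.8 to 95.9 CPM in boxers and 85.1 to 129 CPM in Boston terriers, and JCHAIN, the joining chain of antibodies, had 33.7 to 55.8 CPM and 30.8 to 109 CPM. Of 4 neutrophil genes tested, CSF3R reached 100.0 CPM in Boston terrier 6 and 1.495 to 30.2 CPM in boxers. ALAS2, which starts heme synthesis in red cell precursors, had 0 to 2.60 CPM in boxers and 0.0988, 23.5 and 8.25 CPM in Boston terriers 2, 6 and 7, and HBM, a hemoglobin gene, was seen in Boston terriers 6 and 7 and in no other dog of the 7. Ependymal genes were tested for 3 of 7, and DNAH5, a dynein of cilia, had 113 CPM in boxer 1 against 3.32 to 28.01 CPM in the other dogs.

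Astrocyte genes were higher in boxers for 9 of 11 tested, with a median log2 fold change of 0.46 that was 0.15 without Boston terrier 7, 0.30 without boxer 4 and 0.31 without boxer 3. GFAP, the filament protein of astrocytes, had 956 to 1365 CPM in the 4 boxers and 1220, 331 and 256 CPM in Boston terriers 2, 6 and 7. AQP4, the water channel of astrocyte end feet, had 1515 CPM in Boston terrier 2, above every boxer, and 112 and 31.7 CPM in Boston terriers 6 and 7, below every boxer. AGT, angiotensinogen, was the single member at an unadjusted p under 0.05, against 3.35% of all genes higher. Its log2 fold change was 1.66, and 2.49 without Boston terrier 2.

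Neuron genes were higher in boxers for all 15 tested, with a median log2 fold change of 0.49 (1.80 by limma-voom) and none at an unadjusted p under 0.05. The size and direction moved with single dogs. The level of the list was 4.41, 5.13, 6.35 and 4.21 log2 CPM in boxers 1, 3, 4 and 5 and 3.54, 6.01 and 1.13 log2 CPM in Boston terriers 2, 6 and 7. Boston terrier 7 was far below all other dogs, with 4.93 CPM of the synaptic gene SNAP25 against 32.9 to 380 CPM. The median was -0.20 without boxer 4, with 3 of 15 higher, and 0.01 without Boston terrier 7 and 0.08 without Boston terrier 2. Without Boston terrier 6 it was 2.60, with 9 of 15 at an unadjusted p under 0.05. In that fit 1129 of all genes were higher in boxers at this threshold, against 561 with all 7 dogs. Boston terrier 7 had the lowest neuron level and the highest S phase level of the 7 dogs.

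**Figure D4:**
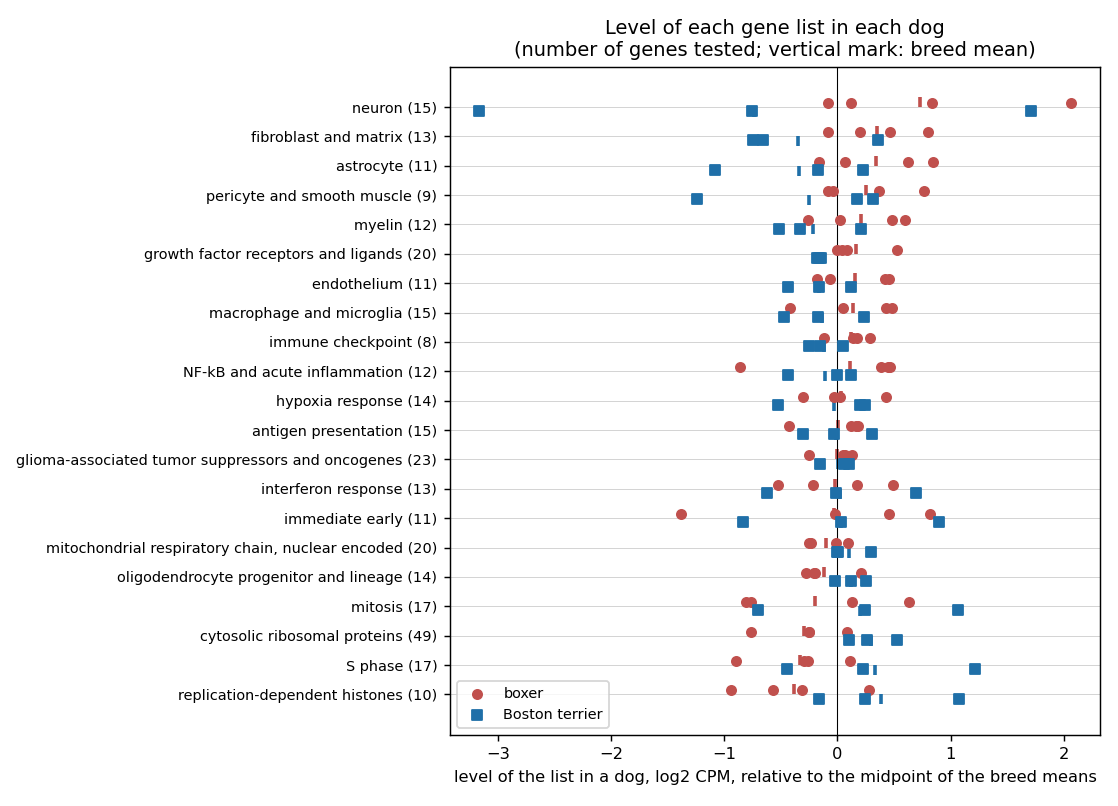
Level of 21 gene lists in each dog (horizontal axis, mean log2 CPM of the tested genes, relative to the midpoint of the 2 breed means), with boxers as red circles, Boston terriers as blue squares and breed means as vertical marks. The lists are ordered by the breed difference, from neuron, fibroblast and astrocyte genes (higher in boxers) to S phase and histone genes (lower), and the breeds are apart only for the ribosomal proteins and the growth factor receptors and ligands.

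Of the remaining lists, hypoxia, interferon, antigen presentation and immediate early genes had median log2 fold changes of 0.02, -0.07, -0.05 and 0.03, each of either sign when single dogs were left out. NF-kB and acute inflammation genes had 0.27 (0.069 without boxer 5). Of these, the chemokine CCL4 had 2.03, and 1.11 to 2.41 when single dogs were left out. Boxer 1 had 14.9 CPM of CCL4 and boxer 4 had 0.698 CPM. DLA88, a class I antigen-presenting molecule, had 27.8, 58.5, 12.8 and 34.4 CPM in boxers and 19.6, 8.86 and 8.25 CPM in Boston terriers, with a log2 fold change of 1.45 (SE 0.52, edgeR unadjusted p = 0.0206). DLA genes differ in sequence between dogs and have close copies, which makes their counts uncertain. Immune checkpoint genes had 6 of 8 higher in boxers and a median of 0.31. Nuclear genes of the respiratory chain had 14 of 20 lower and a median of -0.18 (-0.078 without Boston terrier 7), with none at an unadjusted p under 0.05.

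Of the genes often altered in glioma, 10 of 23 were higher and 13 lower in boxers, with a median log2 fold change of -0.07. CDK4, a kinase that starts the cell cycle, had 30.04, 33.5, 19.04 and 36.5 CPM in boxers and 37.4, 38.9 and 82.1 CPM in Boston terriers. Boxer 5 and Boston terrier 2 were nearly equal, and the log2 fold change was -0.83 (SE 0.33), and -0.36 without Boston terrier 7. ATRX, a chromatin remodeler, had 271 to 324 CPM in boxers and 355 to 380 CPM in Boston terriers, with no overlap and a log2 fold change of -0.30. TERT, the catalytic chain of telomerase, had 6.80 to 23.1 CPM in boxers and 3.14 to 7.31 CPM in Boston terriers, with a log2 fold change of 1.37, and 0.87 without boxer 1.

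Outside the lists, AFDN had a difference that was tight within both breeds. AFDN, or afadin, ties cell junctions to actin. It was named after its values were seen, as were TYW3, LTBP1, SCARA3, FLNC, MAP3K1, PKIB, HOXC4, HOXC6, METTL21C and IRX6. It had 182, 161, 175 and 166 CPM in boxers 1, 3, 4 and 5 and 92.9, 85.9 and 74.6 CPM in Boston terriers 2, 6 and 7. The means were 171 ± 9.05 (SD, n = 4) and 84.5 ± 9.27 (SD, n = 3), a 2.02-fold difference, with a log2 fold change of 1.02 (SE 0.18, edgeR unadjusted p = 0.000253, DESeq2 adjusted p = 0.000221). The differences in log2 CPM were 0.89 and 1.05 within the library series, the same direction by construction because the breeds do not overlap.

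Other genes also had breeds that do not overlap, of which TYW3 and LTBP1 were as even within the boxers. TYW3, an enzyme of transfer RNA modification, had 19.2 to 21.2 CPM in boxers and 7.98 to 9.99 CPM in Boston terriers, with a log2 fold change of 1.18. LTBP1, which binds latent TGF-beta, had 28.1 to 31.1 CPM and 7.61 to 15.6 CPM (1.36). SCARA3, a scavenger receptor, had 48.8 to 60.2 CPM and 27.7 to 33.4 CPM (0.86), and FLNC, filamin C, had 22.1 to 30.4 CPM and 8.86 to 14.5 CPM (1.12). In the other direction, MAP3K1, a kinase upstream of JNK, had 150 to 202 CPM in boxers and 320 to 446 CPM in Boston terriers (-1.04), and PKIB, an inhibitor of protein kinase A, had 416 to 529 CPM and 731 to 940 CPM (-0.78).

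HOXC4, a homeobox gene, was detected in every boxer and hardly in the Boston terriers. It had 39, 26, 14 and 25 counts in boxers 1, 3, 4 and 5 and 0, 1 and 0 counts in Boston terriers 2, 6 and 7. The ratio of boxers to Boston terriers was 87.4, with a 95% counting interval of 15.3 to 3483 from the 104 counts and the 1 count. That interval covers counting error only and leaves out the spread between dogs. The fitted log2 fold change was 5.99 (SE 0.95). HOXC4 passed the count filter through the boxers alone, so its p-value is not given as support. HOXC6, of the same gene cluster, had 1 and 7 counts in boxers 1 and 3 and 0 in the other dogs. METTL21C, a protein methyltransferase, and IRX6, an Iroquois homeobox gene, had the opposite pattern, with at most 0.904 CPM in any boxer and at least 1.98 CPM in every Boston terrier. Both passed the count filter through the Boston terriers alone.

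The 28 genes with a symbol among the 40 that DESeq2 called had 16 higher and 12 lower in boxers, with edgeR log2 fold changes of 0.78 to 5.99 in size. All 40 had an edgeR unadjusted p under 0.05 and 39 had breeds that do not overlap. The direction within both library series was that of the whole comparison for all 28. For genes whose breeds do not overlap this holds by construction. All 28 were also chosen on the same dogs, so it adds no support. In 5 of the 40 a single dog held at least as much of the summed CPM as all other dogs together.

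Among genes of at least 1 mean log2 CPM whose breeds do not overlap, those of largest fold were often led by 1 dog. DCDC2, a microtubule-binding doublecortin protein, had 133, 19.4, 3.59 and 16.8 CPM in boxers and 0.896 to 1.98 CPM in Boston terriers, with a log2 fold change of 4.95, and 3.25 without boxer 1. SCN11A, a voltage-gated sodium channel, had 2.78, 38.7, 5.28 and 13.8 CPM in boxers and 1.38, 1.56 and 0.269 CPM in Boston terriers (3.81, and 2.75 without boxer 3). Boxer 1 was the highest dog for PLEKHG4B (3.37, and 2.08 without boxer 1), BMPER, an extracellular regulator of bone morphogenetic proteins (2.56), UNC5D, a netrin receptor (2.37), MYT1L, a neuronal transcription factor (2.22), and SVEP1, a matrix protein (2.096). When single dogs were left out, BMPER ranged from 2.035 to 3.562, UNC5D from 1.709 to 2.685 and SVEP1 from 1.563 to 2.532. Boxer 1 was not the highest for PIK3R6 (2.15) and C5orf58 (2.01). MYT1L had 1 count in Boston terrier 7, the dog with the lowest neuron level, and an edgeR unadjusted p of 0.0803, and its log2 fold change was 4.03 without Boston terrier 6.

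Among the genes lower in boxers, IGFBP2, which binds insulin-like growth factors, had 0.823, 5.46, 12.4 and 6.89 CPM in boxers and 19.5, 31.8 and 157 CPM in Boston terriers, with a log2 fold change of -3.44 (SE 0.89), which was -2.003 without Boston terrier 7. HEPACAM2, an adhesion molecule of the immunoglobulin family, had 0.514 to 2.94 CPM in boxers and 6.91, 20.6 and 21.6 CPM in Boston terriers (-3.36). STAG3, the cohesin of meiosis, had 0.479 to 1.44 CPM and 3.56 to 6.54 CPM (-2.34). HAPLN1, which links hyaluronan to proteoglycans, had 4.12, 35.5, 24.9 and 42.7 CPM and 174, 48.5 and 83.7 CPM (-1.93, and -1.27 without Boston terrier 2). The interferon-inducible GTPases IFGGB2 and IFGGC1 had -2.17 (-3.52 without boxer 5) and -1.65 (-0.96 without Boston terrier 2), while the interferon list as a whole had 9 of 13 genes lower and a median of -0.07. KLF10, a transcription factor induced by TGF-beta, C1QL2 and PRDM6 had -1.67, -1.70 and -1.62.

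Genes that the study listed for French bulldogs were chosen on these libraries against both breeds together, so their values here are a description. Of 22 tested, 12 were higher and 10 lower in boxers, with a median log2 fold change of 0.02, and 5 had an unadjusted p under 0.05, against 6.18% of all genes (SCN11A, DLA88, ANGPTL7, ITGA9 and KY). ITGA9, an integrin chain, had 129, 197, 283 and 95.7 CPM in boxers and 219, 755 and 558 CPM in Boston terriers (log2 fold change -1.54, SE 0.46, edgeR unadjusted p = 0.00884). The difference was -0.18 in the first library series and -2.76 in the second. LOXL4, a lysyl oxidase of the matrix, had 167 and 65.9 CPM in boxers 1 and 3 and 3.09 to 16.6 CPM in the other 5 dogs. HIP1 had a log2 fold change of -0.09. ANGPTL7 had 37.6 CPM in boxer 1 and 1.99 to 7.47 CPM elsewhere, and KY had 5.88 to 10.6 CPM in boxers and 8.79 to 20.6 CPM in Boston terriers.

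The 11 French bulldogs were set beside the breeds, on a scale common to all 18 libraries, to see on which side they lay. For PDGFRA they had 42.6 to 5015 CPM with a median of 1337, and 0 of 11 fell within the range of the boxers (385 to 830 CPM), with 4 below it and 7 above. Within the range of the Boston terriers (1388 to 1674 CPM) there was 1 of 11, with 6 below it and 4 above. For AFDN, 10 of 11 French bulldogs were above all Boston terriers and 6 were below all boxers. For TYW3 and LTBP1, 10 of 11 in each were below all boxers. For HOXC4 they had 0.102 to 8.35 CPM with a median of 1.24, the lowest of them under the level of 3 counts. The ribosomal proteins took 0.430% to 0.858% of the counts of a French bulldog, with 8 of 11 within the range of the boxers and 4 of 11 within that of the Boston terriers, ranges that overlap. These counts place single genes and were not tested. They take the 11 French bulldog libraries as separate dogs, as the study does. A pair of these libraries share a case number in their names. The study's patient table gives that pair the same age, sex and tumor location, so they may be from the same dog.

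The direction of the breed difference varied between chromosomes, a grouping looked at after the values were seen. Genes were grouped by chromosome in the RefSeq annotation, and the 8514 genes with a mean of 3 log2 CPM or more were used, in 39 chromosomes with at least 50 such genes. Over all of these genes 44.0% were higher in boxers, but 6 chromosomes had 70% or more higher and 8 had 30% or fewer. The chromosome that carries APP, SOD1, RUNX1 and OLIG1 had 93.1% of 72 genes higher, and the one that carries ALK and NRAS had 91.0% of 266. The chromosome of ITGA9 and SCN11A had 18.5% of 157 genes higher, and the one of PDGFRA, KIT and MYC had 24.04% of 183.

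Dogs of the same breed differed on these chromosomes. For each dog, the median over a chromosome's genes of its log2 CPM minus the mean of the other 6 dogs was taken, relative to the dog's median over all genes used. The median size of the 273 values was 0.08, and 37 were 0.3 or more in size. On the APP chromosome Boston terrier 6 had -0.65, whereas boxers 1 and 4 had 0.46 and 0.42. On the chromosome of ALK and NRAS the Boston terriers were alike, at -0.22, -0.25 and -0.21, while the boxers ranged from -0.25 to 0.45. On the ITGA9 chromosome Boston terrier 7 had 0.56 and the other 6 dogs -0.20 to -0.03. On the PDGFRA chromosome boxer 4 had -0.73 and Boston terrier 2 had 0.54, but the boxers ranged to 0.34 and the Boston terriers down to -0.31, and the median log2 fold change of its 183 genes was -0.24 against -1.33 for PDGFRA. On the chromosome of VEGFA, CCND3 and FYN, Boston terrier 7 had -0.59, and on that of MET, CDK6 and CAV1 Boston terrier 2 had -0.69. These values moved with the direction of many genes, and their part in the results above was not tested.

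**Figure D5:**
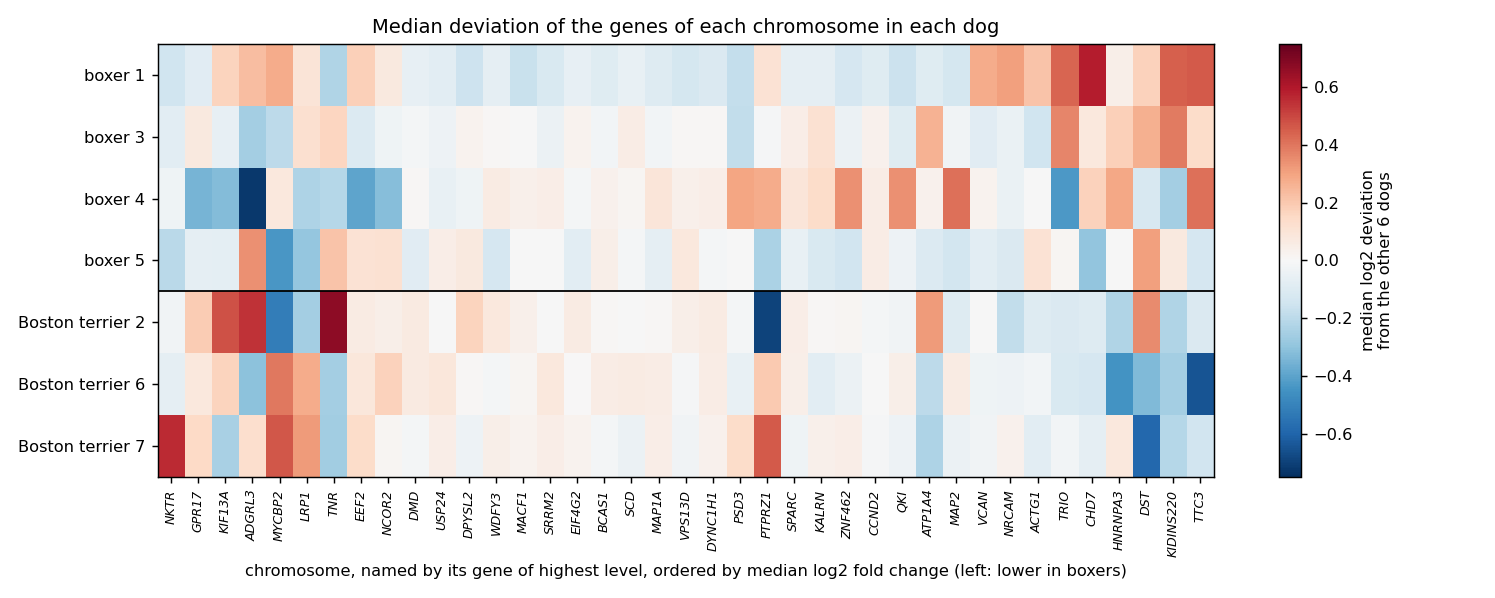
Median deviation, in log2 CPM, of the genes of each of 39 chromosomes in each dog from the other 6 dogs (color, red higher and blue lower), with the chromosomes named by their gene of highest level and ordered by the median log2 fold change from lower (left) to higher in boxers (right). Strong colors are mostly not shared by the dogs of a breed, as on the ADGRL3 (PDGFRA) chromosome, where boxers 4 and 5 have -0.73 and 0.34 and Boston terriers 2 and 6 have 0.54 and -0.31, while those in the middle are mostly near 0.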

How the data were processed

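The authors trimmed paired-end reads (Trimmomatic 0.33), aligned the pairs with HISAT2 2.1.0 to canFam6, used featureCounts to assign them to genes, and deposited raw counts per gene without normalization. The libraries were made from total RNA with ribosomal RNA depletion. Counts of the 4 boxers and 3 Boston terriers were analysed with edgeR 4.0.16 in R 4.3.3 (TMM, robust quasi-likelihood F test, two-sided, Benjamini-Hochberg adjustment over all genes tested, threshold 0.05), for genes with 10 or more counts in at least 3 dogs. Each SE was the size of the log2 fold change over the root of its F statistic. Log2 CPM had a prior count of 2. DESeq2 1.42.0 and limma 3.58.1 (voom) were alternatives. p-values measure the spread between dogs.

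The members and the gene lists were chosen with earlier results of these data known. Named genes were those with an adjusted p under 0.05, the 10 highest and 10 lowest log2 fold changes among genes with a symbol, at least 1 mean log2 CPM and breeds that do not overlap (small RNAs left out), the 3 smallest p in each list, the first 3 markers of each cell type, and of the genes listed for French bulldogs those with p under 0.05 and FGF4, HIP1, ITGA9, LOXL4 and SCN11A. Other genes were chosen after their values were seen, and a few genes are not reported here. Chromosomes came from RefSeq annotation of another assembly (UU_Cfam_GSD_1.0), matched by symbol for 11226 of 11349 genes, so positions are not printed. The scripts were first tested on simulated counts. Figures were made with Python 3.11.15 and matplotlib 3.10.9.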

Additional observations from a re-analysis of the deposited data

Results flagged for a closer look

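Among 165 values tested over the 4 boxers, 10 had 1 boxer far from the other 3, and chance flags about 1 in 20 groups. The 3 Boston terriers were too few for such a test. No cause was tested for any of them. Boxer 5 had the lowest level of DES, the desmin gene of smooth muscle, at 1.36 log2 CPM against 2.96 to 3.22 in the other boxers. It had the highest level of the oligodendrocyte progenitor and lineage list (8.59 against 8.11 to 8.19) and of ALAS2, the single tested member of the erythroid list (1.48 against -2.36 to -1.78). Boxer 4 had the lowest level of the immediate early gene IER2 (2.58 against 4.35 to 4.70) and of the NF-kB and acute inflammation list (1.64 against 2.88 to 2.96), and the highest level of the histone gene H4C4 (2.26 against 1.36 to 1.42) and of KY (3.43 against 2.60 to 2.68). Boxer 1 had the lowest level of the antigen presentation list (3.45 against 3.99 to 4.05) and the highest of the growth factor receptor and ligand list (5.25 against 4.73 to 4.82).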

How the results depend on the processing

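No paired analysis was possible because the boxers and the Boston terriers are different dogs. Their label numbers are a running index and match no boxer to a Boston terrier. With 7 dogs and a median standard error of 0.34 on the log2 scale, the number of dogs limits the precision.

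The count of genes with an adjusted p under 0.05 was 40 by DESeq2 and 0 without each dog in turn by edgeR. The percent of genes higher in boxers was 50.4 with DESeq2 size factors and by DESeq2, 53.4 with upper quartile normalization, 50.6 with no filter on low counts and 51.2 with all 18 libraries or 17 libraries in the fit (French bulldog 6 left out, a setting added after the data were seen). Genes 2-fold or more higher and lower in boxers numbered 3790 and 2521 with no filter on low counts and 320 and 143 with 10 counts in each of the 7 libraries. Genes with an unadjusted p under 0.05, higher and lower in boxers, numbered 332 and 259 with the library series as a term, 170 and 156 with all 18 libraries in the fit and 303 and 278 with 17 libraries in the fit. The list median was 0.062 for B cell genes with no filter on low counts, 1.21 for ependyma and choroid plexus genes with 10 counts in each library and -0.0092 for neutrophil genes with the library series as a term. The log2 fold change of CD2 by limma-voom was 0.38. With the library series as a term it was 0.045 for S100A12, -0.099 for TPPP3, 0.046 for HIP1 and -0.11 for KIT. The cause of these changes was not tested, except that fewer or more genes and dogs entered by construction.

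Leaving out 1 dog at a time gave the following ranges. Genes with an unadjusted p under 0.05 numbered 389 to 1129 higher in boxers (1129 without Boston terrier 6) and 232 to 529 lower (232 without Boston terrier 7). Genes 2-fold or more higher in boxers numbered 721 to 1593 (without Boston terrier 6), genes with every boxer above every Boston terrier 824 to 1753 and below 949 to 1491, counts that grow with fewer dogs by construction. The percent of genes higher in boxers was 47.1 to 52.3. List medians ranged from -0.20 to 2.60 for neuron, 0.45 to 1.17 for fibroblast and matrix, -0.68 to 0.76 for T cell (without Boston terrier 2), -0.77 to -0.087 for B cell (without Boston terrier 2), -1.48 to 0.34 for neutrophil (without Boston terrier 6) and -0.22 to 0.19 for small non-coding RNA genes (without Boston terrier 7). Log2 fold changes of named genes that took both signs ranged from -0.45 to 3.06 for AQP4, -0.15 to 3.10 for SNAP25, -0.31 to 1.14 for SYT1, -0.37 to 0.80 for RBFOX3, -0.12 to 0.61 for PECAM1, -0.13 to 0.33 for CDH5, -0.0066 to 0.76 for KDR, -0.039 to 1.46 for COL1A2, -0.027 to 1.17 for COL3A1, -0.099 to 0.96 for AIF1, -0.15 to 0.73 for CD68, -0.77 to 0.76 for CD2, -0.90 to 0.13 for JCHAIN, -2.14 to 0.018 for S100A12, -0.90 to 0.018 for S100A8, -2.30 to 0.67 for CSF3R, -0.14 to 0.65 for TPPP3, -0.078 to 1.03 for OAS2, -0.25 to 0.30 for HIP1 and -0.29 to 0.69 for KIT. DESeq2 called 26 named genes that edgeR did not call.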
